A study of Mus musculus with 12 samples.

Results

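The genes described here encode a pericellular matrix system of the arterial wall: 5 secreted proteases that cut aggrecan and versican (Adamts1, Adamts4, Adamts5, Adamts9 and Adamts15), the proteoglycans versican (Vcan) and aggrecan (Acan), the hyaluronan synthases Has1 and Has2, and the hyaluronan receptor Cd44. They were chosen by name, as the genes whose symbol in the array files is 1 of these 10, out of 22761 genes tested, and all 10 had a probe that passed the filter on dim probes. RNA from the aorta of adult males was measured on 12 one-colour microarrays, 3 in each of 4 groups, to ask how the aorta responds to BAPN + AngII challenge and whether loss of Socs3, a feedback inhibitor of Stat3 signalling, in smooth muscle cells alters that response. WT mice carried the floxed Socs3 allele on both chromosomes without Cre, and smSocs3-KO mice carried the same floxed allele with SM22-Cre, a transgene whose promoter is active in smooth muscle, so that other cell types of the aorta were meant to keep Socs3. The strain was given as 129S5/SvEvBrd, C57BL6 and SJL for all groups. In each genotype, 3 mice were sampled before challenge and 3 at day 3 of infusion with BAPN (150 mg/kg/day), which blocks lysyl oxidase and so the crosslinking of matrix fibres, together with AngII (1000 ng/kg/min), a pressor hormone.

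Versican and aggrecan carry chondroitin sulfate chains, bind hyaluronan through their amino-terminal ends and hold water in the matrix. Hyaluronan is a long sugar chain made at the plasma membrane by the Has enzymes, and Cd44 tethers it to cells. Aggrecanases release the proteoglycans by cutting their core proteins, and in the aorta versican is the main large proteoglycan of the media, while excess aggrecan and versican have been linked with aneurysm and dissection.

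A log2 level in the following is the log2 processed signal of a probe minus the 75th percentile of all probes on its array, so that a difference of 1 is a 2-fold difference in signal. Levels of different probes are not compared with each other. Within groups, arrays correlated at 0.964 to 0.992 across genes, between 55.4% and 61.2% of spots were well above background, and no spot was saturated. Socs3 was not lower on the arrays labelled smSocs3-KO: its log2 level was 0.30, 0.32 and 0.75 in WT before challenge and 0.24, 1.14 and 1.46 on the unchallenged arrays labelled smSocs3-KO. At day 3 its WT levels were 2.21, 2.30 and 0.64, and those labelled smSocs3-KO were 3.31, 2.28 and 4.13. The deletion is therefore known from the labels alone, and KO below stands for these labels. All 6 smooth muscle markers (Myh11, Acta2, Tagln, Cnn1, Smtn and Lmod1) were well above background on all 12 arrays. Replicate 4 of WT at day 3 stood apart from replicates 1 and 3. The mean log2 level of 6 proliferation genes was -0.45 on replicate 4, and 2.41 and 2.36 on replicates 1 and 3. In WT before challenge it was -2.97 to -2.59. Some of these 6 genes were not well above background on every array. One slide carried the 6 WT arrays with KO replicate 1 before challenge, and the other 5 KO arrays shared another, so that at day 3 genotype and slide cannot be told apart. In bulk tissue, fewer cells of a type and less RNA per cell cannot be told apart either.

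The data show that Vcan, Cd44 and Has1 rose with BAPN + AngII challenge when the responses of both genotypes were averaged. The mean of the 2 challenge responses was 1.05 ± 0.23 on the log2 scale for Vcan (SE, 2.06-fold, adjusted p = 0.0121), 1.12 ± 0.25 for Cd44 (2.18-fold, adjusted p = 0.0128) and 2.34 ± 0.75 for Has1 (5.05-fold, adjusted p = 0.0456), each from 6 arrays against 6 in a limma model of all genes with Benjamini-Hochberg adjustment. These were 3 of the 10 members, all higher, and 22.7% of all 22761 genes passed the same threshold of an adjusted p under 0.05, so the count does not set the members apart from other genes. The median of the 10 mean responses was 0.79, and that of all genes was -0.05. None of the 5 proteases passed, and neither did Acan or Has2. The call of Has1 was lost in 13 of 22 alternative settings, and those of Vcan and Cd44 in 1 of 22 each.

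**Figure D1:**
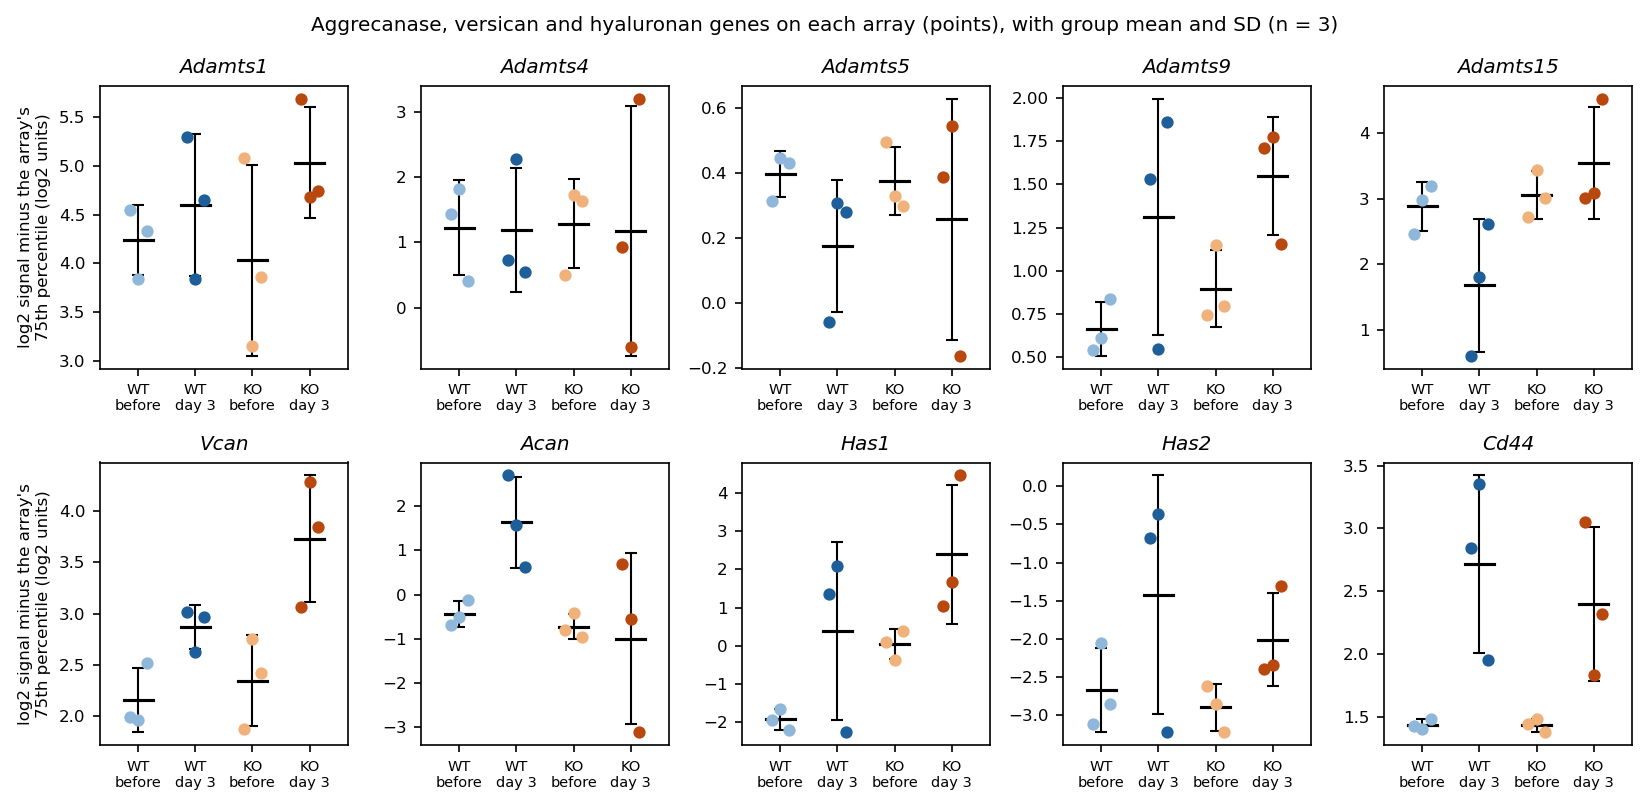
Log2 level (signal minus the array's 75th percentile, log2 units, a separate scale in each panel) of the 10 genes in the 4 groups, with 1 point per array, a line at the group mean and bars of 1 SD (n = 3); KO stands for the arrays labelled smSocs3-KO. Vcan and Cd44 lie higher on all 3 day 3 arrays than on all 3 arrays before challenge in each genotype, while Has1 and Has2 on 1 WT array at day 3 lie at the level before challenge.

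In a single genotype, no member passed the threshold. In the WT challenge response 0 of 10 were called beside 4.68% of all genes, with 4 members and 26.6% of all genes at an unadjusted p under 0.05. In the KO challenge response 0 of 10 were called beside 2.45% of all genes, with 3 members and 23.8% of all genes at an unadjusted p under 0.05. The medians of the members were 0.68 in WT and 0.77 in KO, and those of all genes were -0.02 and -0.06. At the threshold that the study's methods use (a change of over 4-fold up, or to under 0.25 of the level, at an unadjusted p under 0.01), 0 members passed in WT, where 1.28% of all genes did, and 0 in KO, where 1.63% did.

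Among the proteoglycans, Vcan had log2 levels of 2.0, 1.96 and 2.52 in WT before challenge and 3.02, 2.62 and 2.97 at day 3. Its KO levels were 1.87, 2.75 and 2.42 before challenge and 3.07, 4.28 and 3.84 at day 3. All day 3 arrays were above all arrays before challenge of the same genotype, and the 3 KO arrays at day 3 were the highest of the 12. The difference was 0.71 ± 0.32 in WT (adjusted p = 0.187) and 1.38 ± 0.32 in KO (adjusted p = 0.0511), and the difference between these 2 responses, tested as an interaction, was 0.67 ± 0.45 (adjusted p = 0.970). In order of their means, the groups ran from WT before challenge (2.16) over KO before challenge (2.35) and WT at day 3 (2.87) to KO at day 3 (3.73). The first pair overlapped, and so did KO before challenge and WT at day 3. Leaving out each array in turn kept the mean response between 0.91 and 1.21, with adjusted p of 0.0131 to 0.0365 over the 12 fits. The KO response passed without KO replicate 2 at day 3 (1.71 ± 0.29, adjusted p = 0.0340) and without WT replicate 4 at day 3 (1.38 ± 0.33, adjusted p = 0.0337).

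A second Vcan probe, from the stretch of the transcript that encodes the hyaluronan-binding amino-terminal region of versican, gave the same direction with challenge. It read 0.02, 0.07 and 0.01 in WT before challenge and 0.98, 0.70 and 0.18 at day 3. In KO it read 0.01, 0.07 and -0.14 before challenge and 0.62, 1.94 and 2.09 at day 3. At day 3 KO replicate 2 (0.62) lay below WT replicates 1 (0.98) and 3 (0.70), so the genotypes overlapped on this probe. Its levels before challenge lay within a narrow range and every day 3 level lay above them. Tested alone among all 32283 kept probes, it gave a mean response of 1.08 ± 0.24 (adjusted p = 0.0139) and a KO response of 1.57 ± 0.34 (adjusted p = 0.0444). Another probe, which is listed for transcript variant 5 alone among the named Vcan transcripts, was well above background on 9 of 12 arrays. It was so on 1 of 3 WT and 2 of 3 KO arrays before challenge and on every array at day 3. This probe thus passed the filter only through groups at day 3. Its mean response of 0.62 ± 0.31 (adjusted p = 0.163) includes signals not well above background.

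The sequence of this second probe is shown because, unlike the first, it reads coding sequence far from the 3′ end of the transcript. It lies at chr13:89851810-89851869 on the minus strand (mm9, as the array files give it), and no base is marked.
Vcan probe in the hyaluronan-binding region: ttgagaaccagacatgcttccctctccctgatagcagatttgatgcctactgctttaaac

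Acan, the cartilage-type relative of versican, was higher with challenge on every WT array but not on every KO array, and no difference passed the test. Its log2 level was -0.69, -0.50 and -0.12 in WT before challenge and 2.69, 1.58 and 0.63 at day 3. On the KO arrays it was -0.80, -0.41 and -0.96 before challenge and 0.69, -0.56 and -3.11 at day 3. All 3 WT arrays at day 3 were above those before challenge, and the KO arrays at day 3 lay on both sides of theirs, with replicate 5 the lowest of the 12. The WT response was 2.07 ± 0.79 (4.20-fold, adjusted p = 0.131) and the KO response -0.27 ± 0.79 (adjusted p = 0.851), and the interaction of -2.34 ± 1.12 had an adjusted p of 0.947. Without KO replicate 5 at day 3 the WT response passed (2.07 ± 0.49, adjusted p = 0.0493), its SE falling with the shared estimate of spread, and so did the mean response (1.43, adjusted p = 0.0313, against 0.90 and 0.254 with it). Of 5 chondrocyte markers, Matn1 was well above background on 0 arrays, Col2a1 on 2, Col9a1 on 4, Matn3 on 8 and Hapln1 on 12. The summed linear signal of the 2 that passed the filter, in units of each array's 75th percentile, was 0.25 to 0.331 in unchallenged WT, 0.179 to 0.355 in challenged WT, 0.227 to 0.342 in unchallenged KO and 0.108 to 0.548 in challenged KO. These ranges overlapped between all groups.

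Of the hyaluronan synthases, Has1 had log2 levels of -1.94, -1.65 and -2.19 in WT before challenge and 1.36, 2.08 and -2.26 at day 3. In KO it was at 0.11, -0.38 and 0.39 before challenge and at 1.05, 1.67 and 4.46 at day 3. In WT, replicates 1 and 3 at day 3 were far above the arrays before challenge and replicate 4 was below all of them. In KO, all day 3 arrays were above those before challenge. The differences were 2.32 ± 1.06 in WT (4.99-fold, adjusted p = 0.190) and 2.36 ± 1.06 in KO (5.12-fold, adjusted p = 0.207). Without WT replicate 4 at day 3, the WT response was 3.65 ± 0.80 (adjusted p = 0.0152) and the mean response 3.00 ± 0.54 (adjusted p = 0.00347). The call of the mean response was not kept in 10 of the 12 fits that each left out 1 array, with adjusted p of 0.0550 to 0.110. These 10 were the fits without any 1 of the 3 WT arrays before challenge, WT replicate 1 or 3 at day 3, any 1 of the 3 KO arrays before challenge, or KO replicate 3 or 5 at day 3, and the mean response in them was 1.82 to 2.52.

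Has2, the synthase of the longest hyaluronan chains, was at -3.11, -2.06 and -2.85 in WT before challenge and at -0.68, -0.37 and -3.22 at day 3. Its KO levels were -2.62, -2.86 and -3.22 before challenge and -2.39, -2.34 and -1.31 at day 3. The same 2 WT arrays as for Has1 were high at day 3 and the same array was not, while all KO arrays at day 3 were above those before challenge. The mean response was 1.07 ± 0.45 (2.10-fold, adjusted p = 0.108). Without WT replicate 4 at day 3 it was 1.52 ± 0.26 (adjusted p = 0.00295), and the WT response was 2.15 ± 0.39 (adjusted p = 0.00705). Around their group means, Has1 and Has2 moved together over the 12 arrays (Pearson r = 0.89, n = 12 arrays that share their groups and scaling, given as a description). With the group means left in, r was 0.67 over the 12 arrays and 0.62 without WT replicate 4 at day 3. Has3, the remaining synthase, did not pass the filter on dim probes.

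The receptor Cd44 had log2 levels of 1.43, 1.40 and 1.48 in WT before challenge and 2.84, 3.35 and 1.95 at day 3. On the KO arrays it was at 1.44, 1.48 and 1.38 before challenge and at 3.05, 1.83 and 2.31 at day 3. The 6 arrays before challenge lay within 1.38 to 1.48, every day 3 array was above them, and the genotypes overlapped at both times. The WT response was 1.28 ± 0.35 (2.43-fold, adjusted p = 0.0594) and the KO response 0.97 ± 0.35 (1.95-fold, adjusted p = 0.140). Their difference was -0.31 ± 0.50 (95% interval -1.41 to 0.78, adjusted p = 0.996). The mean response kept its call in all 12 fits that each left out 1 array, at 0.96 to 1.31. Without WT replicate 4 at day 3, the WT response passed (1.66 ± 0.30, adjusted p = 0.00742).

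Proliferation genes were also higher at day 3. All 6 (Mki67, Top2a, Ccnb1, Cdk1, Birc5 and Bub1) were called in WT and in the mean response, beside 4.68% and 22.7% of all genes. In KO 1 was called, beside 2.45% of all genes. The mean of the 6 was -2.97 to -2.59 in WT before challenge and -0.45 to 2.41 at day 3. In KO it was -2.83 to -2.52 before challenge and -0.92 to 0.96 at day 3. Bub1 was well above background on only 6 arrays, Cdk1 on 7 and Top2a on 11. Some of these means thus include signals not well above background, so the size of the rise is not exact. Bub1 and Cdk1 may also have passed the filter on dim probes only through groups at day 3, where the list was high. Their calls can then follow in part from the filter. Leukocyte markers moved in part with Vcan, Has1 and Cd44: the mean of 8 markers was 1.26 to 1.47 in WT before challenge and 1.26 to 2.33 at day 3, and 1.48 to 1.65 in KO before challenge and 2.12 to 2.39 at day 3. Of these 8, 4 were called higher in the mean response and 0 lower, beside 22.7% of all genes called, and 5 of 8 had a positive value. The summed leukocyte signal, which the brightest markers set, overlapped between the times: it was 189.1 to 236.2 and 158.4 to 268.1 in WT, and 137.1 to 330.6 and 155.3 to 194.4 in KO, in units of the array's 75th percentile. Smooth muscle markers had a mean of 7.62 to 7.65 in WT before challenge and 6.90 to 7.65 at day 3, and 7.49 to 7.88 and 6.69 to 7.16 in KO. All 6 were lower with challenge in both genotypes. Only Myh11 was called, in the mean response (-1.09 ± 0.23, adjusted p = 0.011). Neutrophil markers (4 tested) had a mean of 0.42 to 1.2 in WT before challenge and 0.71 to 2.19 at day 3, and of 0.33 to 1.66 and 1.78 to 4.40 in KO. Of the 4, 3 had a positive value in KO and in the mean response. Only Ly6g was called higher, in KO (1.58 ± 0.26, adjusted p = 0.0222) and in the mean response. The summed neutrophil signal overlapped between the times, at 298.5 to 387.5 and 220.2 to 385.3 in WT, and 189.1 to 415.3 and 196 to 231.4 in KO. The part of these cells in the rises of Vcan, Has1 and Cd44 was not tested.

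**Figure D2:**
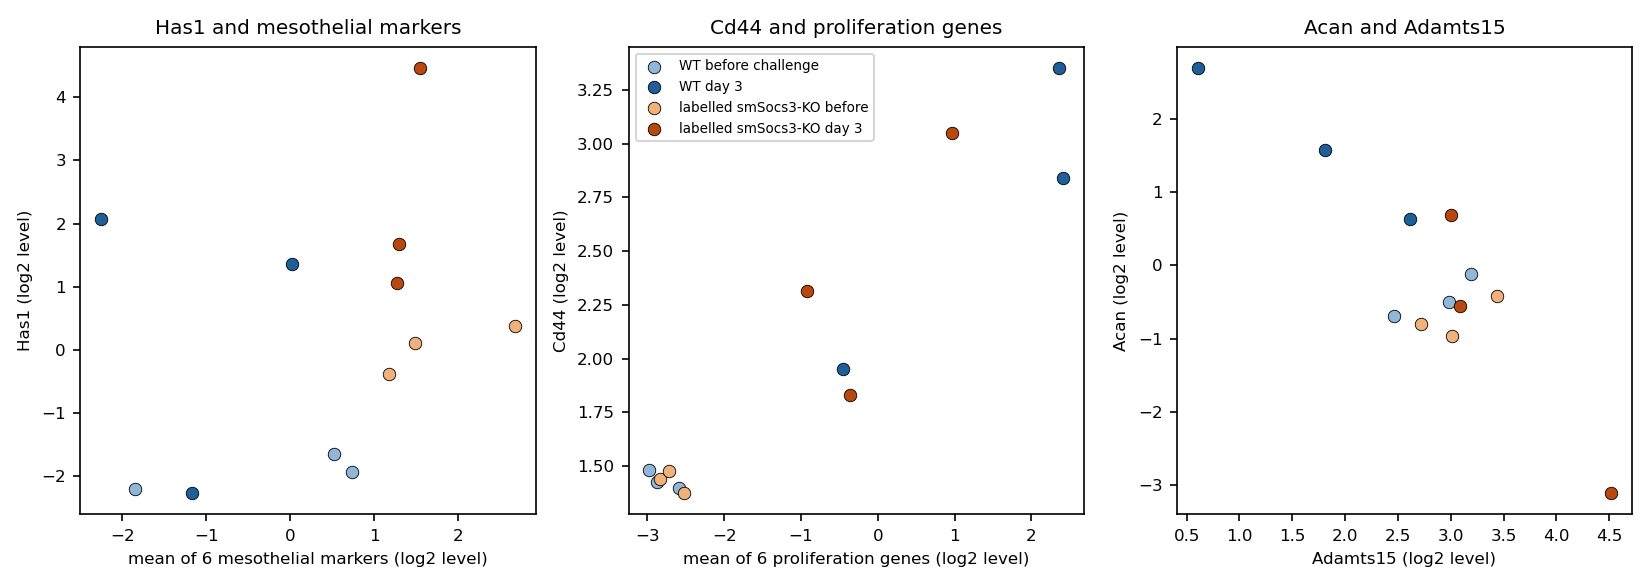
Log2 levels on the 12 arrays, 1 point per array coloured by group: Has1 against the mean of 6 mesothelial markers (left), Cd44 against the mean of 6 proliferation genes (middle) and Acan against Adamts15 (right), all in log2 units relative to the array's 75th percentile. Mesothelial markers are higher on the 6 arrays labelled smSocs3-KO (1.18 to 2.67) than on the 6 WT arrays (-2.25 to 0.73), and Cd44 stays within 1.38 to 1.48 on the 6 arrays before challenge.

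Cd44 is spliced into many forms, and its probes differ in what they read. The probe above lies near the 3′ end of the gene, and another at the end of the coding sequence had a mean response of 1.22 ± 0.32 (adjusted p = 0.0232, among all kept probes). A probe in the variably spliced stretch of coding sequence was at -3.80, -3.26 and -3.62 in WT before challenge and at -2.44, -2.03 and -3.08 at day 3. In KO it was at -3.53, -3.80 and -3.38 before challenge and at -2.40, -4.22 and -2.93 at day 3. It was higher at day 3 on all WT arrays and on 2 of 3 KO arrays, and KO replicate 3 at day 3 was the lowest of the 12. Its mean response was 0.71 ± 0.29 (adjusted p = 0.0992), and the difference between probes was not tested. A further probe of this stretch was well above background on 3 of 12 arrays and did not pass the filter. Both are shown because they read Cd44 forms that hold extra exons. The first lies at chr2:102677971-102678030 and the second at chr2:102672645-102672704, both on the minus strand (mm9, as the array files give it), with no base marked.
Cd44 variably spliced stretch, probe kept: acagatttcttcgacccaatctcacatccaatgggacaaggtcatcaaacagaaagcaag
Cd44 variably spliced stretch, probe not kept: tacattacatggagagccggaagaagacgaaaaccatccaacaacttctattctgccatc

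RefSeq promoters of GRCm38.p6 were given for 6 of the 10 members (Adamts1, Adamts9, Vcan, Acan, Has1 and Cd44). The 250 bases before the start of the 3 genes called in the mean response are shown, 5′ to 3′ on the strand of the gene, with matches to 6 motifs in capitals. The motifs, searched on both strands, were AP-1 (TGANTCA), STAT (TTCNNNGAA), CRE (TGACGTCA), TATA box (TATAAA), GC box (GGGCGG) and MCAT (CATTCC). The Vcan promoter is at chr13:89742513-89742762 on the minus strand, that of Has1 at chr17:17855189-17855438 on the minus strand and that of Cd44 at chr2:102901666-102901915 on the minus strand.
Vcan: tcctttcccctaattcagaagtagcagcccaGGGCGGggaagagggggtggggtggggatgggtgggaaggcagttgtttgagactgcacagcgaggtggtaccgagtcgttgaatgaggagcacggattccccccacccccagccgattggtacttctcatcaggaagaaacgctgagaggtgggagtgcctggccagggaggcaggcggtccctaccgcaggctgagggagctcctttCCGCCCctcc
Has1: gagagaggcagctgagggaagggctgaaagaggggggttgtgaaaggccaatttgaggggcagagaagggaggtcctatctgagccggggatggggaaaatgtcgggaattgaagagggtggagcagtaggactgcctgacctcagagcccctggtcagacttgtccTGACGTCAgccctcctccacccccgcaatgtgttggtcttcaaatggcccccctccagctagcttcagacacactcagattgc
Cd44: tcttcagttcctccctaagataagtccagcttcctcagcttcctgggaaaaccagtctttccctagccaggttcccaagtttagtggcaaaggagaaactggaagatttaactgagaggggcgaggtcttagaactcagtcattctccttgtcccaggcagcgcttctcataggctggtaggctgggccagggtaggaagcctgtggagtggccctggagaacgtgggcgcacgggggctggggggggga

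Vcan held a GC box 219 and another 10 bases before its start, a motif found in 32.7% of all 32851 promoters of the same length. Has1 held a CRE 83 bases before its start, found in 1.55% of all promoters. Cd44 held none of the 6 motifs. The AP-1 and STAT letters were in none of these 3 windows, and 6.75% and 7.02% of all promoters hold them. No match of 1 motif overlapped another in these 3 promoters. The 3 promoters shared none of the motifs searched.

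Among the proteases, Adamts9, which is anchored to the cell surface and cuts versican, came closest to the threshold in the mean response. Its log2 level was 0.54, 0.61 and 0.84 in WT before challenge and 1.53, 0.55 and 1.86 at day 3. Its KO levels were 0.74, 1.15 and 0.79 before challenge and 1.71, 1.77 and 1.15 at day 3. On 2 of 3 WT arrays and on all 3 KO arrays it was above the levels before challenge, though KO replicate 5 exceeded the highest of them only slightly. The differences were 0.65 ± 0.31 in WT and 0.65 ± 0.31 in KO, and their mean was 0.65 ± 0.22 (1.57-fold, adjusted p = 0.0533). It passed without WT replicate 3 at day 3 (0.84, adjusted p = 0.0176) and without KO replicate 5 at day 3 (0.75, adjusted p = 0.0492). A second Adamts9 probe, which the files list for another transcript, had a mean response of 0.31 ± 0.31 (adjusted p = 0.476, among all kept probes).

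Adamts15 cuts both versican and aggrecan and was the protease with the widest difference between genotypes at day 3. Its log2 level was 2.46, 2.98 and 3.19 in WT before challenge and 0.60, 1.81 and 2.62 at day 3. On the KO arrays it was 2.71, 3.44 and 3.01 before challenge and 3.00, 3.09 and 4.52 at day 3. At day 3 the 3 KO arrays were above the 3 WT arrays, and before challenge the genotypes overlapped. The WT response was -1.20 ± 0.51 (adjusted p = 0.167), the KO response 0.48 ± 0.51 (adjusted p = 0.576) and their difference 1.68 ± 0.73 (adjusted p = 0.926). Without WT replicate 4 at day 3, the WT response was -1.67 ± 0.50 (adjusted p = 0.0484). Around the group means, Acan and Adamts15 moved in opposite directions (Pearson r = -0.77, n = 12 arrays that share their groups and scaling, a description only).

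Adamts1, Adamts4 and Adamts5 did not pass in any comparison. Adamts1, which is rich in inflamed and vascular tissue and cuts versican, had mean log2 levels of 4.24 ± 0.36 (SD, n = 3) in WT before challenge and 4.60 ± 0.73 at day 3, and of 4.03 ± 0.98 and 5.04 ± 0.57 in KO. Its mean response was 0.68 ± 0.36 (adjusted p = 0.179), and the groups overlapped in both genotypes. Adamts4, an aggrecanase induced by cytokines, was spread most widely in KO at day 3, at 0.92, -0.60 and 3.21. Its mean response was -0.07 ± 0.59 (95% interval -1.38 to 1.23), and a second probe gave 0.80 ± 0.46 (adjusted p = 0.215, among all kept probes). Adamts5, the main aggrecanase of mouse cartilage, stayed within -0.16 to 0.54 on the 12 arrays, and its 3 WT levels at day 3 were below the 3 before challenge. Its mean response was -0.17 ± 0.14 (95% interval -0.47 to 0.13, adjusted p = 0.378), and a second probe gave -0.29 ± 0.17 (adjusted p = 0.226).

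**Figure D3:**
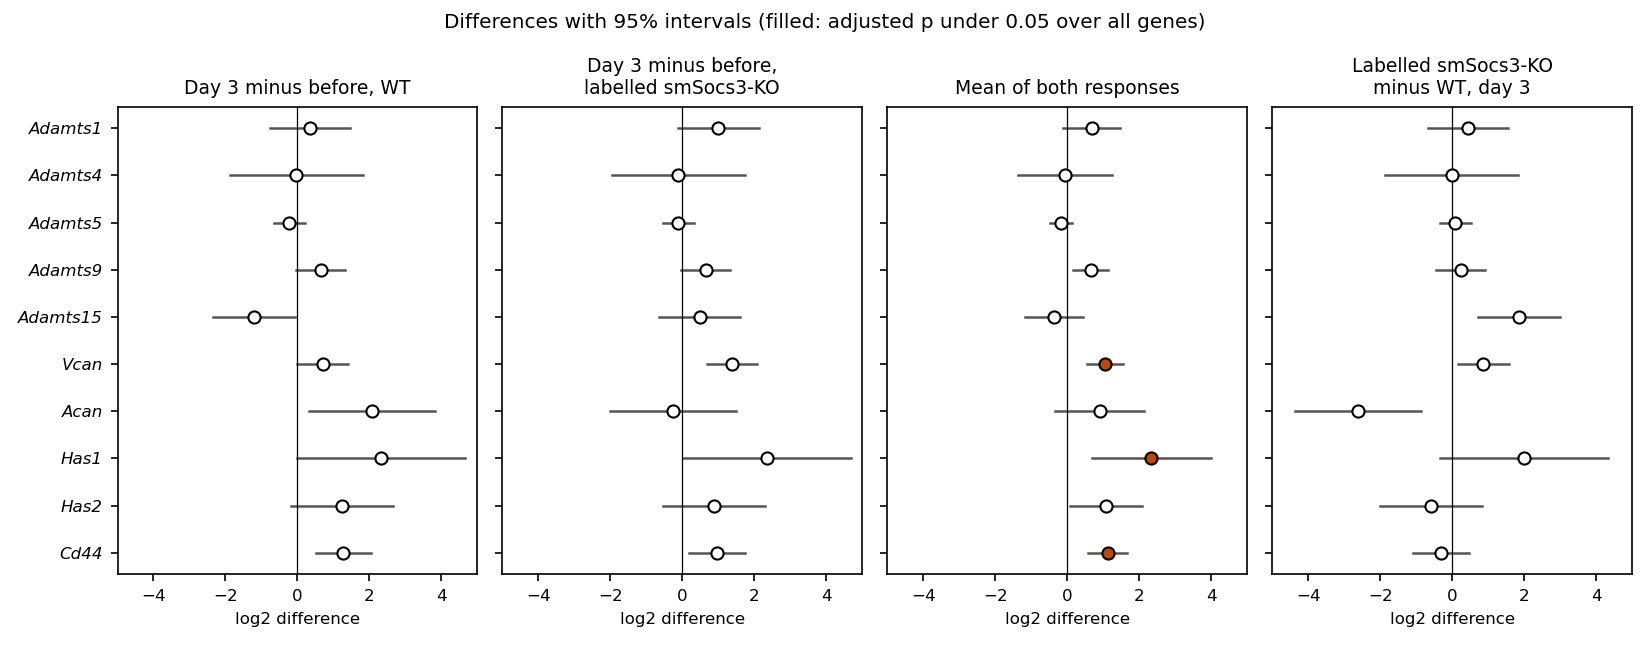
Log2 differences (points) with 95% intervals (lines) of the 10 genes in the WT challenge response, the KO challenge response, the mean of both and the difference between arrays labelled smSocs3-KO and WT at day 3; filled points have an adjusted p under 0.05. Only Vcan, Has1 and Cd44 in the mean response are filled, and at day 3 the intervals of Adamts15, Vcan and Acan exclude 0 before adjustment.

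Between genotypes, no member passed the adjusted threshold. Before challenge 0 of 10 members were called in limma beside 0.0264% of all genes, with 0 members and 4.4% of all genes at an unadjusted p under 0.05. At day 3 0 of 10 were called beside 1.11% of all genes, with 3 members and 16.2% of all genes at an unadjusted p under 0.05. In the interaction 0 of 10 were called beside 0% of all genes, with 1 member and 5.33% of all genes (1214) at an unadjusted p under 0.05. The 3 members at day 3 were Adamts15 (1.86 ± 0.51, 3.63-fold higher in KO, adjusted p = 0.118), Vcan (0.86 ± 0.32, 1.81-fold higher, adjusted p = 0.230) and Acan (-2.63 ± 0.79, adjusted p = 0.150). Fibroblast markers moved with this comparison: all 5 (Pdgfra, Dpt, Lum, Dcn and Pi16) were higher in KO at day 3, and Dpt (1.99 ± 0.33, adjusted p = 0.0230) and Pi16 (1.64 ± 0.33, adjusted p = 0.0467) were called. Their mean log2 level was 4.49 to 4.79 in WT and 5.32 to 5.89 in KO at day 3, and their summed signal 473.5 to 556.9 and 670.6 to 1030 in units of the array's 75th percentile. The part of fibroblasts in the differences of Vcan and Adamts15 was not tested. At the threshold of the study's methods, Acan was the 1 member that passed at day 3, where 1.11% of all genes did, and 0 members passed before challenge, where 0.242% did. The groups overlapped for Acan, and without KO replicate 5 at day 3 its difference was -1.57. Adamts15 passed the adjusted threshold without WT replicate 4 at day 3 (2.33 ± 0.50, adjusted p = 0.0419). With slide as a block, the day 3 difference of Vcan was 0.15 ± 0.53, that of Adamts15 1.35 ± 0.95 and that of Acan -2.73 ± 1.5, a comparison that rests on the 1 KO array on the WT slide.

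Has1 was the member with the widest genotype difference before challenge. Its 3 KO levels of 0.11, -0.38 and 0.39 were all above its 3 WT levels of -1.94, -1.65 and -2.19, a difference of 1.97 ± 1.06 (3.91-fold, adjusted p = 1). With slide as a block it was 2.04 ± 1.57 (adjusted p = 0.701), which rests on 1 KO array against 3 WT arrays. Mesothelial markers moved with it. All 6 (Msln, Upk3b, Upk1b, Lrrn4, Wt1 and Krt19) were higher in KO before challenge and at day 3, with a median difference of 2.12 and 2.65. Upk1b was well above background on 10 arrays and Lrrn4 on 11, so the values of the 6 include some signals not well above background. At either time 0 of 6 were called, beside 0.0264% of all genes before challenge and 1.11% at day 3. At the threshold of the study's methods 1 passed before challenge and 5 at day 3, beside 0.242% and 1.11% of all genes. The mean log2 level of the 6 before challenge was -1.85 to 0.73 in WT and 1.18 to 2.67 in KO. At day 3 it was -2.25 to 0.03 in WT and 1.27 to 1.55 in KO. The summed signal of the 6 was 4.0 to 23.4 in WT and 29.1 to 66.4 in KO before challenge, and 2.77 to 14.2 and 31.5 to 43.4 at day 3, in units of the array's 75th percentile. The part of mesothelial cells in the Has1 difference was not tested. With challenge all 6 were lower in both genotypes, with medians of -0.91 in WT and -0.32 in KO, while Has1 was higher.

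The other genes of the pathway, 71 of 88 listed that had a kept probe, were described from 7 lists. In the mean response 15 of 71 were called higher and 5 lower, in WT 3 higher and 1 lower, in KO 3 higher and 0 lower, and 0 in the genotype differences and the interaction. The 20 called in the mean response were 28.2% of the 71, beside 22.7% of all genes, and the shares in WT and KO were 5.63% and 4.23%, beside 4.68% and 2.45%. The median mean response of the 71 was 0.12, against -0.05 for all genes. Adamts3, Ambp and Spp1, counted as higher, passed the filter on dim probes only through groups at day 3. Mmp9, counted as lower, passed it only through groups before challenge. The counts and shares thus include genes that were tested only because of the groups in which they were high.

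Of 16 other ADAMTS and ADAMTS-like genes, 4 fell and 1 rose in the mean response, beside 22.7% of all genes called. Adamts6 (-0.75, adjusted p = 0.0113), Adamts10 (-0.51, adjusted p = 0.0309), which binds fibrillin microfibrils, Adamts17 (-1.68, adjusted p = 0.0342) and Papln, which encodes papilin (-1.03, adjusted p = 0.0178), fell. In KO at day 3 Adamts17 was at -3.43, -4.06 and -6.92 and well above background on 2 of 3 arrays, so the size of its fall is not exact. Adamts6 also fell in WT alone (-1.05 ± 0.22, adjusted p = 0.0360). Adamts3, a procollagen protease, was called higher (adjusted p = 0.0218), but its probe was not well above background on any array before challenge. It was so on 1 of 3 WT arrays at day 3, where no bound above 1 could be set, and on 3 of 3 KO arrays, where the rise was at least 1.27-fold. Here and in the following, such a bound sets the measured group against the lowest signal counted as well above background on each array of the dim group. Of 8 genes for activation, anchoring, clearance and inhibition of these proteases, Timp1, an inhibitor of metalloproteinases, rose in both genotypes. It was at 3.03, 3.15 and 3.23 in WT before challenge and at 7.62, 7.52 and 4.64 at day 3, and at 4.46, 4.27 and 4.25 in KO before challenge and at 8.01, 6.68 and 7.92 at day 3. The groups did not overlap, and the rise was 10.97-fold in WT (adjusted p = 0.0329) and 9.26-fold in KO (adjusted p = 0.0388). Timp3, the main inhibitor of aggrecanases, had a mean response of 0.28 ± 0.10 (adjusted p = 0.0713).

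Of 22 genes for chondroitin and dermatan sulfate chains, 6 rose and 0 fell in the mean response, and 20 of 22 had a positive value, beside 22.7% of all genes called and 46.1% with a positive value. Chsy1 and Chpf2, which lengthen the chain, rose by 0.58 and 0.74 on the log2 scale (adjusted p = 0.0342 and 0.0132), and Chpf2 also rose in WT alone (0.94 ± 0.23, adjusted p = 0.0469). Chst7, a sulfotransferase (0.60, adjusted p = 0.0358), Dse, the epimerase that makes dermatan sulfate (0.54, adjusted p = 0.0435), and Papss1 and Papss2, which make the sulfate donor (0.48 and 0.71, adjusted p = 0.0323 and 0.0147), rose as well. Of 4 genes for hyaluronan synthesis and breakdown, Ugdh, which makes the sugar nucleotide used by Has enzymes and for chondroitin sulfate, rose (0.80 ± 0.22, 1.74-fold, adjusted p = 0.0264), and the hyaluronidases Hyal1 (-0.65, adjusted p = 0.194) and Hyal2 (0.10, adjusted p = 0.648) did not pass.

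Of 12 genes for hyaluronan binding and crosslinking, 5 rose and 0 fell in the mean response, beside 22.7% of all genes called, and 8 of 12 had a positive value. Tnfaip6, which transfers heavy chains onto hyaluronan, was at -3.16, -1.43 and -1.14 in WT before challenge and at 0.63, 1.37 and -1.52 at day 3. In KO it was at -3.46, -2.6 and -2.23 before challenge and at 0.08, 0.80 and 1.86 at day 3. The WT groups overlapped through replicate 4, and the KO groups did not overlap. It rose 12.8-fold in KO (adjusted p = 0.0395), and the mean response was 2.88 ± 0.54 (adjusted p = 0.00820). Ptx3, which crosslinks hyaluronan with these heavy chains, had a mean response of 2.96 ± 0.75 (adjusted p = 0.0209). Its WT groups also overlapped through replicate 4, which at -3.67 lay below the WT arrays before challenge (-3.07, -2.73 and -2.71). Lyve1, the hyaluronan receptor of lymphatic endothelium and resident macrophages, rose in KO (2.97-fold, adjusted p = 0.0303) and in the mean response (1.25 ± 0.21, adjusted p = 0.00631), and Layn, another hyaluronan receptor, rose by 0.77 (adjusted p = 0.0160). Ambp, the precursor of bikunin, was called higher in the mean response (adjusted p = 0.00818). Its probe was not well above background on any WT array before challenge. At day 3 it was so on 2 of 3 WT arrays, with replicate 4 at -5.39, so no bound is given for its WT rise.

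Of 6 linkers and ligands of CD44, Spp1 (osteopontin) rose and Mmp9 fell in the mean response (adjusted p = 0.00660 and 0.0161), beside 22.7% of all genes called. Spp1 was not well above background on any WT array before challenge. Its WT levels at day 3 were 2.66, 1.79 and -2.25, with replicate 4 far below the others. The rise of the WT group mean was at least 32.5-fold (adjusted p = 0.0348), a bound that does not hold for replicate 4 alone. Mmp9 was well above background on 0 of 3 WT arrays and 1 of 3 KO arrays at day 3, and was at least 2.275-fold lower in WT at day 3 than before challenge. Of 3 other hyalectans and link proteins 0 were called in any comparison, and Ncan (neurocan) had the largest mean response among them, at -0.55 ± 0.33 (adjusted p = 0.236).

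**Figure D4:**
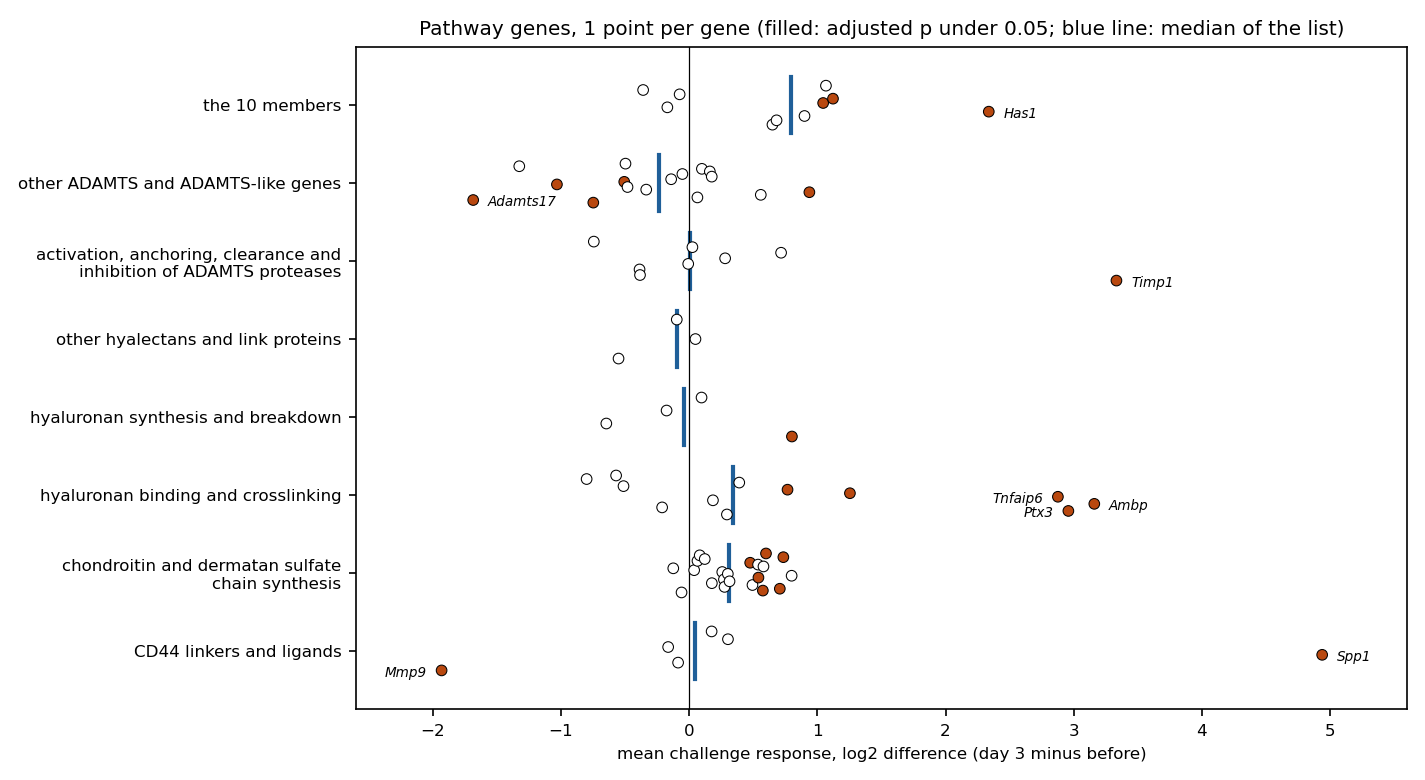
Mean challenge response (log2 difference, day 3 minus before, mean of both genotypes) of each tested gene, 1 point per gene in rows by list, with the 10 members in the top row; filled points have an adjusted p under 0.05 and blue lines mark list medians. In the row of chondroitin and dermatan sulfate genes 20 of 22 points lie above 0, and Timp1, Ptx3, Tnfaip6 and Has1 lie above 2. The points of Spp1, Ambp, Adamts3 and Mmp9 are fitted values that include groups not well above background, so they have no order.

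The genes whose log2 levels followed a member most closely over the 12 arrays were found by Pearson r among all tested genes, as a description of arrays that share groups and scaling. They were Cd302 (0.96), Por (0.95) and Bcdin3d (0.95) for Vcan, Lbh (0.94), Lmod3 (0.94) and Igfbp2 (0.94) for Acan, and Tnni2 (0.96) and Casp4 (0.94) for Has1. For Has2 they were Tubb2b (0.97) and Lamb1 (0.94), with a probe without a gene symbol between them, and for Cd44 an unnamed probe came first (0.97), followed by Tmsb10 (0.97) and Hmga1 (0.97). Among proteases, the closest were Gcnt1 (0.87), Per3 (0.86) and Hspb7 (0.83) for Adamts1, Phrf1 (0.89) and Zfpm1 (0.83) for Adamts4, Chrdl1 (0.90), Tnip3 (0.90) and Myoc (0.89) for Adamts5, and Col6a1 (0.93), Narfl (0.90) and Atxn7l1 (0.90) for Adamts9. Adamts15 was followed most closely by Itih3 (0.95), which encodes a heavy chain that binds hyaluronan, and AI790276 (0.93), and the remaining place for Adamts4 and for Adamts15 went to a probe of an unnamed transcript.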

How the data were processed

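Scanner files of all 12 arrays were deposited by the authors and hold, for each spot, a processed intensity on a linear scale, from which background had been subtracted. The file headers name Feature Extraction 10.7.1.1 and the submitters' processing notes name 9.5.1.1. A deposited table of quantile normalized intensity values of the same arrays served as an alternative. From the intensity, log2 was taken, control and outlier spots were left out, spots of a probe were averaged and the array's 75th percentile over the 55681 probes other than controls was subtracted. Those well above background (signal over background by 13 times its SD) throughout at least 1 group passed, 32283 in all, and the brightest kept probe of a gene stood for it. Group means and 6 contrasts came from limma 3.58.1 (R 4.3.3), checked on simulated data, and p-values were adjusted over all 22761 genes (Benjamini-Hochberg). The labels do not say that arrays of a group come from separate litters or days, so p-values measure the spread between these samples. The 3 arrays per group limit precision, and an exact permutation test of 3 against 3 cannot go below p = 0.1.

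The 10 members and all lists were chosen with earlier results of these data known. Beside the members, the rule for naming took the pathway genes called in any of the 6 comparisons, the gene with the largest mean response of a list with none, and the 3 genes most like each member. Of the latter, 1 gene for Has1 is not reported here. Timp3, Hyal1, Hyal2 and Has3 were named after their values were seen. Of 18 member probes 17 were kept. Cell type lists were smooth muscle, endothelium, fibroblast, leukocyte, neutrophil, mesothelium, adipocyte, chondrocyte and proliferation. Endothelium (mean log2 level 1.86 to 2.56 over the 12 arrays) and adipocyte markers (-1.00 to 2.42) had 0 genes called in any comparison. Replicate numbers recur between groups, but of 11 same-numbered pairs only 4 deviated together with r over 0.1 (range -0.40 to 0.46), so they were not taken as pairs. Positions of probes come from the array design (mm9) and were not matched to an annotation here. Alternatives covered background correction, normalization, the filter on dim probes, the choice of probe, the moderation of variances, slide, replicate number and leaving out single arrays. Testing each probe alone was chosen after seeing the data. Protein sequences were not used here.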

Additional observations from a re-analysis of the deposited data

How the results depend on the processing

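Of 60 member differences (10 genes in 6 comparisons), 34 kept their sign under the alternatives run, 26 that were not called changed sign under at least 1, and 0 called differences changed sign. Vcan and Cd44 kept their call in the mean response under all of them except the replicate block, where 0 members were called in the mean response (Vcan 1.02, adjusted p = 0.0514; Cd44 1.09, adjusted p = 0.0616; Has1 1.81, adjusted p = 0.128). Replicate numbers are shared by name only, and the cause was not tested. Has1 also lost its call without a filter on dim probes (adjusted p = 0.0754) and with slide as a block (adjusted p = 0.0757). With the median in place of the 75th percentile, which moved the median of all genes from -0.05 to 0.16 in the mean response, 5 members were called in the mean response, 1 in WT and 1 in KO. Adamts9 and Has2 were the 2 added (0.85 and 1.27). Adamts9 was also called in the mean response with normexp background correction (adjusted p = 0.0439), with probes well above background on all 12 arrays (0.0450) and with intensity trend and robust moderation (0.0416). In KO 1 member, Vcan, was called with normexp background correction, with probes well above background on all 12 arrays, with the mean of the kept probes, with intensity trend and robust moderation, and 1 with each probe tested alone. In WT 1 member, Cd44, was called with probes well above background on all 12 arrays and with trend and robust moderation. At the threshold of the study's methods 1 was called at day 3 between genotypes. Leaving out each array gave 0 to 4 members called in WT (4 without WT replicate 4 at day 3, namely Cd44, Has1, Has2 and Adamts15), 0 to 1 in KO and 0 to 1 between genotypes at day 3. Has1, Has2 and Adamts15 depend on that 1 array in WT. Signal over background limits the Vcan probe of variant 5 (well above background on 9 of 12 arrays) and the Cd44 probe not kept (3 of 12), and 3 arrays per group limit all comparisons.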
